A study of Mus musculus with 6 samples.

Results

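Mouse bone marrow-derived macrophages given 5 µM KN93 were compared with macrophages given PBS, a buffer, across every gene that reached 1 FPKM in at least 2 of the 4 samples. Of the 54446 entries of the deposited table, 12363 (22.7%) met this rule, and 10461 of them were protein coding. FPKM is the level of a gene: its sequenced fragments, corrected for gene length and for the size of the library. The cells came from marrow of 6-week-old C57BL/6 mice, with no genetic change named in the labels, and both groups held 2 samples. Another group of 2 samples, given 10 µM KN93, entered only the shared estimate of the spread. The labels give neither the duration of treatment nor a vehicle other than PBS, nor whether replicates were different cultures or mice. The sample columns all start with DXM, a prefix that the labels leave undefined and that could stand for something shared by every group. The spread behind the p-values is that of these samples and may be technical.

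KN93 is a small molecule that blocks kinases of the CaMK family, above all CaMKII and CaMKIV. These kinases are switched on when calcium enters the cytosol and binds calmodulin, and they phosphorylate regulators of transcription such as CREB, the class IIa histone deacetylases that hold back MEF2 factors, and proteins that act on the serum response factor SRF. In macrophages, calcium signals take part in phagocytosis, migration and the response to microbial products.

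The FPKM values imply library totals of 26300000 to 28300000 fragments. Across genes, which are not independent replicates, log2(FPKM + 1) correlated at Pearson r = 0.9898 within PBS and 0.9905 within 5 µM, and at 0.964 to 0.9677 between the groups. Mitochondrial transcripts held 0.885% and 0.947% of fragments with PBS and 0.565% and 0.674% at 5 µM. Near the edge of the rule, 262 members had their second-highest value between 1 and 1.1 FPKM, and 268 genes just outside had it between 0.9 and 1. Of the members, 11251 reached 1 FPKM in all 4 samples. A further 317 passed only through the PBS samples and 168 only through the 5 µM samples, and these had to differ between the groups. For tested genes given below with both samples of a group under 1 FPKM, the rule fixed the direction.

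Both directions of change were about equally frequent. Log2 changes below are 5 µM minus PBS of log2(FPKM + 1), with the limma standard error after ±. The added 1 makes the change of low genes look smaller. At a Benjamini-Hochberg adjusted p under 0.05, limma called 3917 genes (31.7% of those tested), of which 1928 (15.6%) rose and 1989 (16.1%) fell. Every count of list members called below is to be read beside these shares. The 2 samples of one group lay without overlap above or below those of the other in 8727 genes (70.6%), among them every gene called. Falls were larger than rises: the median change was 0.37 among genes that rose and -0.48 among genes that fell, and 307 genes fell but 113 rose by at least 1. The median over all genes tested was 0.01, with quartiles of -0.16 and 0.17. Leaving out PBS replicate 1, PBS replicate 2, 5 µM replicate 1 or 5 µM replicate 2 left 1 sample in an arm and called 1990, 2222, 2171 and 2071 genes. Where such a fit moved the count of a gene list by over 1.5 times, the counts are given below in this order. A list median is followed in brackets by each alternative that moved it by over 1.5 times. The median with no filter also takes in the members under 1 FPKM that had a value above 0. Medians within 0.1 of 0 get no such brackets, because small shifts changed the sign of many of them, and no direction is read from them.

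**Figure D1:**
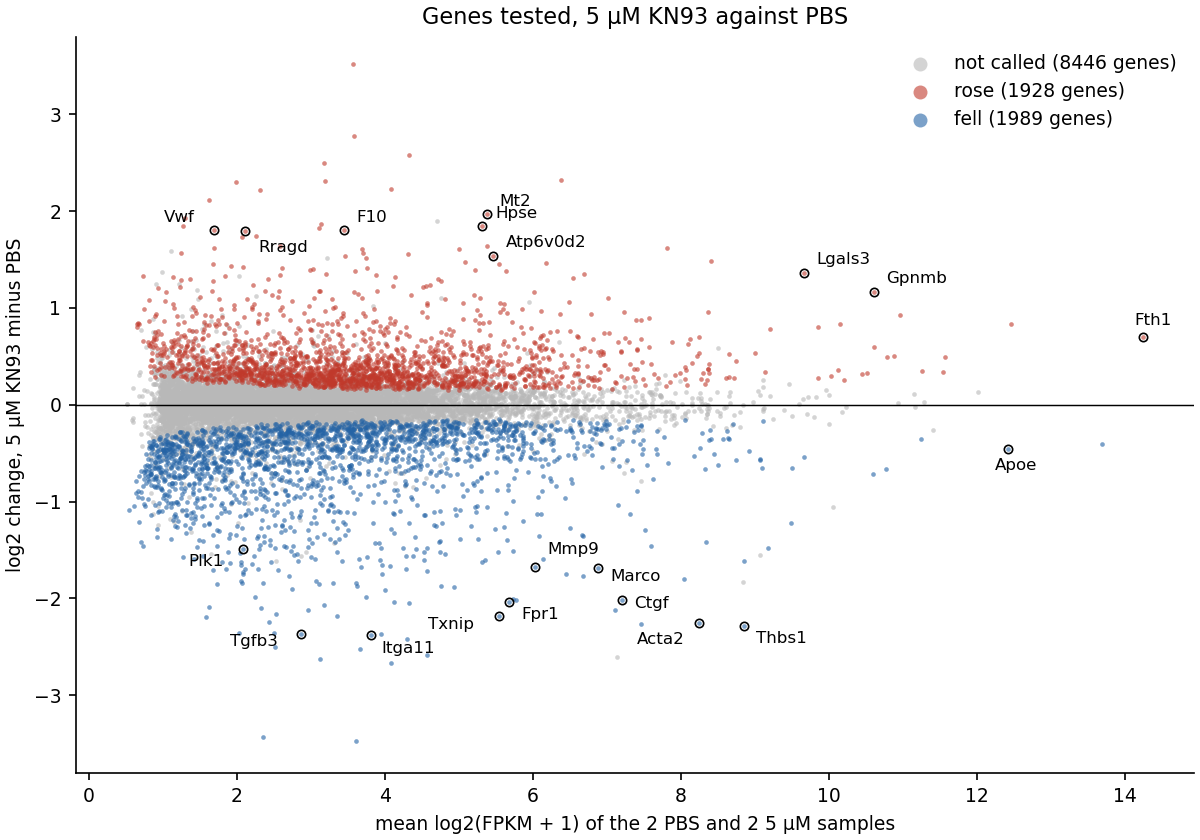
Each point is 1 of the 12363 genes tested, with the mean log2(FPKM + 1) of the 4 samples on the x axis and the log2 change from PBS to 5 µM KN93 on the y axis. Red points rose (1928), blue points fell (1989) and grey points were not called. Acta2, Thbs1 and Ctgf are among the falls at high expression.

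Markers of cell types were examined first, because a bulk sample mixes all cells of a culture. In such samples fewer cells of a type and less RNA per cell cannot be told apart. Macrophage markers dominated: the 15 listed genes summed to 24282 and 23677 FPKM with PBS and 18529 and 18025 FPKM at 5 µM, and 9 of them fell and 2 rose. Most of the sum in PBS replicate 1 was Lyz2, at 15399.7 FPKM. Spi1, which encodes the factor PU.1 that defines the lineage, was at 112 and 103 FPKM with PBS and 103 and 106 FPKM at 5 µM and was not called (-0.04 ± 0.06, limma adjusted p = 0.658). Markers of fibroblasts summed to 1367 and 1275 FPKM with PBS and 517 and 422 FPKM at 5 µM, and 8 of 12 tested fell. The fibroblast genes Lum, Dpt and Mfap5 stayed under 1 FPKM in all 4 samples, while Col1a1 was at 831 and 781 FPKM with PBS and 289 and 237 FPKM at 5 µM. Markers of smooth muscle and pericytes summed to 974 and 1008 FPKM with PBS and 242 and 203 FPKM at 5 µM, and all 5 tested fell. The smooth muscle genes Myh11 (0.205 and 0.288 FPKM with PBS) and Des (0.168 and 0.357 FPKM) stayed under the filter.

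Neutrophil markers summed to 221 and 212 FPKM with PBS and 118 and 129 FPKM at 5 µM, and 6 of 8 tested fell. The early granule genes Mpo and Elane were listed at 0 in both 5 µM samples and stayed under 1 FPKM with PBS. Platelet markers went from 927 and 1034 FPKM to 401 and 318 FPKM, nearly all of it Pf4, while their defining genes Gp9, Itga2b and Gata1 stayed under 1 FPKM. Summed levels of T and NK cell markers (5.20 and 5.95 FPKM with PBS, 4.76 and 4.66 FPKM at 5 µM), of mast cell markers (6.10 and 5.70 FPKM, then 1.61 and 1.61 FPKM) and of erythroid markers (1.16 and 1.42 FPKM, then 1.25 and 1.39 FPKM) were low. Dendritic cell markers summed to 1319.9 and 1252 FPKM with PBS and 1943 and 1930.1 FPKM at 5 µM, most of it Bst2, and endothelial markers to 39.02 and 38.7 FPKM and 47.8 and 48.5 FPKM. B cell markers summed to 10.5 and 11.4 FPKM with PBS and 4.66 and 4.43 FPKM at 5 µM, most of it Cd79b (7.87 and 7.74 FPKM with PBS and 3.53 and 3.73 FPKM at 5 µM).

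**Figure D2:**
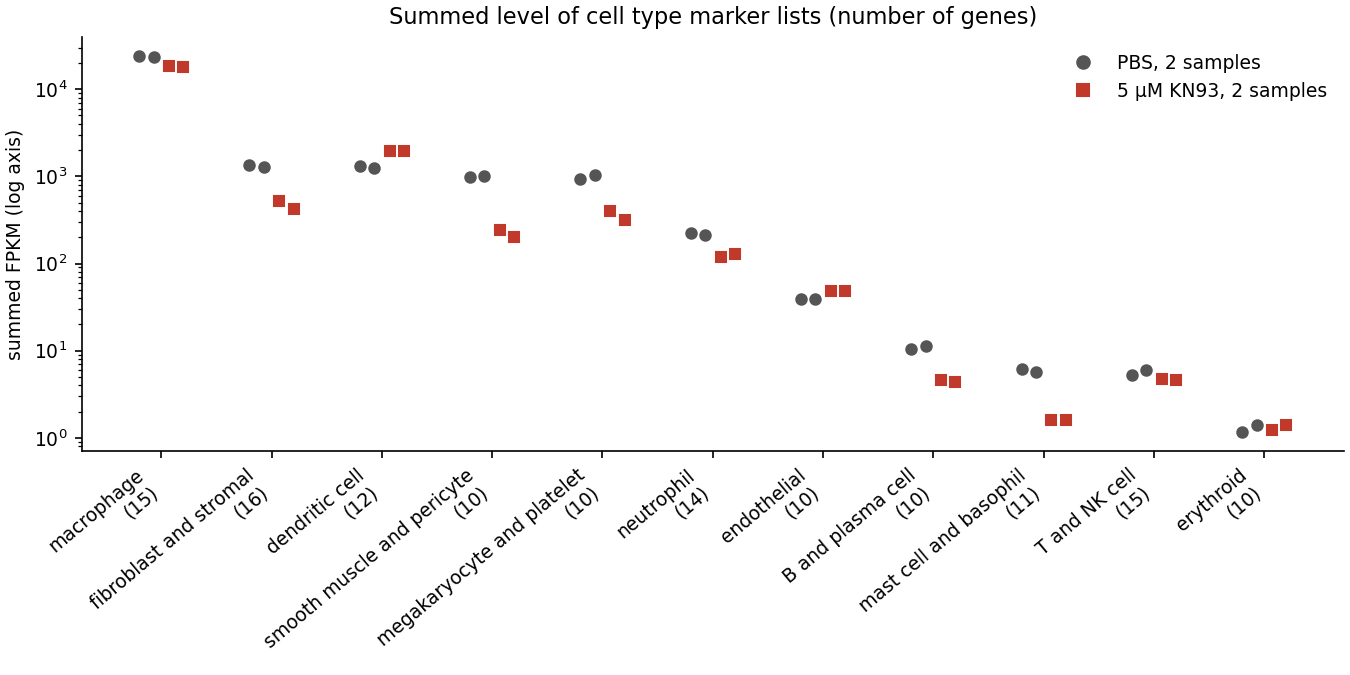
Summed FPKM of 11 lists of cell type markers on a log axis, with 1 point for each of the 2 PBS samples (circles) and the 2 samples given 5 µM KN93 (squares). The fibroblast, smooth muscle, neutrophil and platelet lists were lower in both 5 µM samples than in both PBS samples, and the macrophage list had the highest sum in all 4 samples.

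Of the kinases that KN93 acts on, Camk2g was lower at 5 µM (7.36 and 7.56 FPKM with PBS and 5.67 and 5.597 FPKM at 5 µM, -0.35 ± 0.06, limma adjusted p = 0.00917). Camk2d was not called (3.47 and 3.52 FPKM with PBS and 3.78 and 3.73 FPKM at 5 µM), and Camk2a, Camk2b and Camk4 stayed under 1 FPKM in all 4 samples. The Camk2g call was lost without PBS replicate 2 (0.0553) and without 5 µM replicate 2 (0.0531), the limma adjusted p in brackets. Transcription regulators that CaMK enzymes act on were tested next. Of 13 tested, 4 fell, 1 rose and 8 were not called, a called share near the 31.7% over all genes, with a median change of -0.15 (-0.06 with a filter of 5 FPKM). Mef2c, a MEF2 factor held back by class IIa histone deacetylases, was at 4.06 and 4.40 FPKM with PBS and 2.63 and 2.80 FPKM at 5 µM and changed by -0.49 ± 0.07 (limma adjusted p = 0.00489). Srf, which encodes serum response factor, fell from 20.3 and 19.8 FPKM to 15.7 and 15.7 FPKM. Creb1 (3.11 and 3.20 FPKM with PBS and 2.44 and 2.88 FPKM at 5 µM), Mef2d (29.1 and 31.1 FPKM with PBS and 30.1 and 29.6 FPKM at 5 µM) and Hdac4 (1.90 and 2.09 FPKM with PBS and 2.22 and 2.12 FPKM at 5 µM) were not called. Fits without 1 sample gave 3, 2, 3 and 2 falls and 0, 0, 0 and 0 rises.

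Genes downstream of CREB and of the ERK kinases were lower in part, with 4 of 11 and 7 of 17 not called. The fibroblast marker sums given above were lower too, and their part in these falls was not tested. Of 11 tested genes that CREB and cAMP induce in many cells, 7 fell and 0 rose, with a median of -0.47 (-0.25 with no filter), beside 0.01 over all genes. Thbs1, which encodes the matrix glycoprotein thrombospondin 1 and was by far the highest of them, was at 956 and 1082 FPKM with PBS and 215 and 200.3 FPKM at 5 µM, a change of -2.29 ± 0.16 (limma adjusted p = 0.000626). Dusp1, which encodes a phosphatase of MAP kinases, fell from 19.4 and 19.2 FPKM to 10.8 and 10.5 FPKM, and Pde4b, a cAMP phosphodiesterase gene, from 3.70 and 2.92 FPKM to 1.33 and 1.39 FPKM. The CREB falls numbered 7, 3, 5 and 3 without 1 sample. Of 17 ERK feedback genes, which ERK signalling induces and most of which dampen it, 9 fell and 1 rose, with a median of -0.39 (-0.61 with a pseudocount of 0.1 FPKM and -0.65 with voom). Etv5, an ETS factor induced by ERK, was at 21.8 and 22.9 FPKM with PBS and 7.83 and 5.95 FPKM at 5 µM (-1.58 ± 0.15, limma adjusted p = 0.00148). Ier3 fell from 37.6 and 41.2 FPKM to 24.2 and 23.1 FPKM and Spred1, which encodes an inhibitor of RAS-ERK signalling, from 13.4 and 13.2 FPKM to 8.20 and 8.31 FPKM. Dusp4, another phosphatase gene of this list, went the opposite way, from 2.08 and 2.52 FPKM to 6.21 and 4.91 FPKM. Egr1 was not called, at 5.79 and 5.08 FPKM with PBS and 5.50 and 4.76 FPKM at 5 µM. Without 1 sample the ERK falls numbered 4, 5, 6 and 6.

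Channels and pumps that move calcium had a median of 0.01, with 3 rises and 4 falls among 21 tested. Their called share was near the 31.7% over all genes. The mechanically gated channel gene Piezo1 rose from 42.8 and 41.98 FPKM to 57.98 and 55.9 FPKM (0.42 ± 0.06, limma adjusted p = 0.00423), and Trpv2, another cation channel gene, from 30.1 and 29.02 FPKM to 36.8 and 39.5 FPKM. Orai1, the pore of store-operated calcium entry, was at 19.4 and 18.6 FPKM with PBS and 16.1 and 16.1 FPKM at 5 µM, and Stim1, its sensor in the endoplasmic reticulum, was at 7.05 and 7.07 FPKM with PBS and 6.17 and 6.23 FPKM at 5 µM and not called. The Orai1 call was lost without PBS replicate 1 (0.0938), without PBS replicate 2 (0.051), without 5 µM replicate 1 (0.0761) and without 5 µM replicate 2 (0.0783), the limma adjusted p in brackets. Falls of the list numbered 0, 0, 0 and 1 without 1 sample.

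Targets of SRF and its coactivators of the MRTF family were lower at 5 µM. SRF binds the CArG box, and MRTF proteins enter the nucleus when the pool of monomeric actin shrinks, so that actin, actin-binding and contractile genes are among their textbook targets. Of 25 tested, 22 fell, 0 rose and 3 were not called, with a median of -1.26. Acta2, smooth muscle actin, was at 657 and 672 FPKM with PBS and 149 and 128 FPKM at 5 µM and Cnn1, calponin 1, at 11.7 and 13.5 FPKM with PBS and 1.55 and 1.25 FPKM at 5 µM. Ctgf and Cyr61, secreted matricellular proteins of the CCN family that are also targets of YAP and TEAD, went from 273 and 319 FPKM to 73.8 and 71.1 FPKM and from 103 and 107 FPKM to 26.8 and 24.1 FPKM. In each of these genes both 5 µM samples lay far below both PBS samples.

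Adaptors between actin and adhesion sites were lower as well. Vcl, which encodes vinculin, was at 24.7 and 24.8 FPKM with PBS and 9.11 and 7.48 FPKM at 5 µM (-1.48 ± 0.13, limma adjusted p = 0.00111), and Cnn2, the calponin gene of non-muscle cells, was at 74.4 and 75.4 FPKM with PBS and 33.9 and 27.7 FPKM at 5 µM (-1.26 ± 0.09, limma adjusted p = 0.000694). Tpm1 and Tpm2, tropomyosins that coat actin filaments, fell from 67.6 and 73.3 FPKM to 24.8 and 20.5 FPKM and from 28.6 and 28.98 FPKM to 9.20 and 7.65 FPKM. Fhl2, a LIM domain protein gene, was at 19.9 and 21.7 FPKM with PBS and 6.84 and 5.67 FPKM at 5 µM, Lima1 at 18.1 and 17.7 FPKM with PBS and 10.7 and 10.2 FPKM at 5 µM and Actn1, which encodes alpha-actinin 1, at 88.7 and 96.8 FPKM with PBS and 49.7 and 45.4 FPKM at 5 µM. The falls were smaller for Myh9, nonmuscle myosin heavy chain (153 and 157 FPKM with PBS and 118 and 109.5 FPKM at 5 µM, -0.45 ± 0.05), and for Flna, filamin A (206 and 199.8 FPKM with PBS and 159 and 156 FPKM at 5 µM, -0.36 ± 0.07). The Flna call was lost without PBS replicate 1 (0.0725), without PBS replicate 2 (0.0511), without 5 µM replicate 1 (0.0552) and without 5 µM replicate 2 (0.0692), the limma adjusted p in brackets. The cytoplasmic actins themselves were not called: Actb was at 3129.7 and 2816 FPKM with PBS and 2548 and 2418 FPKM at 5 µM and Actg1 at 541 and 429 FPKM with PBS and 326 and 519 FPKM at 5 µM. Of the 25 genes, 5 were also among the smooth muscle markers above. Without them, 17 of 20 fell and the median was -0.74. The part of smooth muscle or fibroblast RNA in these falls was not tested.

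**Figure D3:**
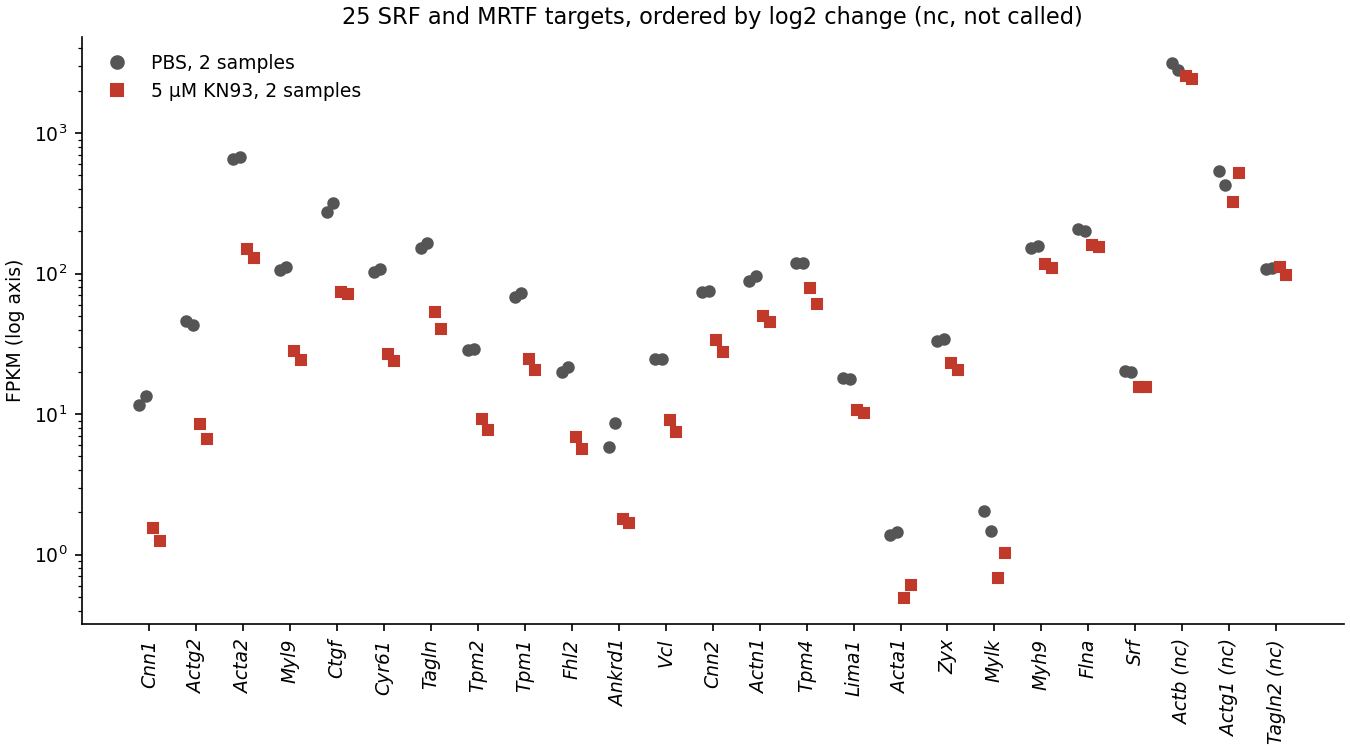
FPKM on a log axis of the 25 tested SRF and MRTF targets in the 2 PBS samples (circles) and the 2 samples given 5 µM KN93 (squares), ordered by log2 change. The 22 called genes, from Cnn1 to Srf, were lower in both 5 µM samples than in both PBS samples. Every called gene lacked overlap between the groups, and so did 70.6% of all genes tested. Actb, Actg1 and Tagln2 were not called, although Actb too was lower in both 5 µM samples.

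The promoters of these targets often held the CArG box. In the RefSeq windows of GRCm38.p6, from 250 bases before to 50 after each annotated start, 38.1% of the 21 SRF and MRTF targets with a window held a CArG box on either strand, against 1.64% of the 8428 tested protein-coding genes with a window. The list was made of textbook targets, so its share says nothing about the response to KN93. Among all genes that fell 3.29% held the box, and among all that rose 1.08%. Actg1, which was not called, is among the targets that hold it. A match is a description of the letters and not a measured site. The 100 bases before the start of 4 of them, all of which fell, are shown 5′ to 3′ on the strand of the gene, with the CArG box in capitals. Actg1 and Acta1 also hold the element within that stretch and are not shown. The 4 stretches lie at chr17:46556163-46556262 on the minus strand (Srf, with 2 boxes), chr10:79988500-79988599 on the plus strand (Cnn2), chr15:99820150-99820249 on the minus strand (Lima1) and chr1:43163962-43164061 on the minus strand (Fhl2).
Srf: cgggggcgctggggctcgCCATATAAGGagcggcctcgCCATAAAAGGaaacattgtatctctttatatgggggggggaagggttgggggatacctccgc
Cnn2: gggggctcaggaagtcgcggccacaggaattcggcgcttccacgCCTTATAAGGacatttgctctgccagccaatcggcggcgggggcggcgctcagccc
Lima1: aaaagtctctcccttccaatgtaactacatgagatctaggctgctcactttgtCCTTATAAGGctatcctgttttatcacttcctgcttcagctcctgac
Fhl2: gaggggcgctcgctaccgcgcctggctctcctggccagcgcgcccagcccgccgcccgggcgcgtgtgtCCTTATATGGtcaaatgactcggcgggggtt

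Several signals of the TGF-beta family were lower at 5 µM. Of 31 genes of the TGF-beta and BMP pathway, 13 fell and 4 rose (3, 3, 2 and 3 rises without 1 sample), with a median of -0.15. Among the ligands, Tgfb3 was at 15.2 and 15.99 FPKM with PBS and 1.93 and 2.56 FPKM at 5 µM (-2.36 ± 0.10, limma adjusted p = 0.000192), Tgfb2 at 5.22 and 4.41 FPKM with PBS and 0.865 and 0.698 FPKM at 5 µM and Inhba, the activin A subunit, at 26.9 and 33.7 FPKM with PBS and 7.94 and 6.69 FPKM at 5 µM, each lower in both 5 µM samples. Tgfb1, the main isoform of leukocytes, was not called, at 50.7 and 50.1 FPKM with PBS and 53.2 and 52.5 FPKM at 5 µM. Among direct targets, Id1 fell from 32.8 and 37.2 FPKM to 13.3 and 9.39 FPKM and Id3 from 119.7 and 119.8 FPKM to 61.4 and 60.4 FPKM. Id2 rose from 41.3 and 43.8 FPKM to 75.97 and 73.6 FPKM. Of the signal transducers, Smad3 fell (13.4 and 11.9 FPKM with PBS and 6.99 and 6.88 FPKM at 5 µM), and Smad2 and Smad4 were not called. The fibroblast and smooth muscle marker sums given above moved the same way, and their part in these changes was not tested.

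Proteases of the matrix and their inhibitors fell without a rise. Of 23 tested metalloproteinases, ADAM and ADAMTS proteases and TIMPs, 17 fell and 0 rose, with a median of -0.54. The fibroblast and neutrophil marker sums were lower too, and their part in these falls was not tested; without the gene that is also such a marker, 17 of 22 fell. Timp1 and Timp3, inhibitors of these enzymes, went from 191 and 214 FPKM to 111 and 87.2 FPKM and from 57.8 and 59.7 FPKM to 31.3 and 24.8 FPKM. Adam10, a sheddase of the cell surface, was at 66.6 and 69.6 FPKM with PBS and 45.4 and 46.1 FPKM at 5 µM (-0.56 ± 0.05, limma adjusted p = 0.00132), and Adamts2, which trims collagen precursors, at 12.7 ± 0.382 FPKM with PBS and 5.76 ± 0.075 FPKM at 5 µM (mean ± SD, n = 2). Mmp13 fell from 8.44 and 11.2 FPKM to 4.19 and 3.56 FPKM. Macrophage elastase Mmp12 (38.6 and 43.1 FPKM with PBS and 40.97 and 37.8 FPKM at 5 µM), Mmp8 (21.9 and 21.3 FPKM with PBS and 26.2 and 23.4 FPKM at 5 µM) and Adam8 (216 and 234 FPKM with PBS and 226 and 202 FPKM at 5 µM) were not called.

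Integrins, the receptors that anchor cells to matrix and to each other, fell in 10 of 15 tested and rose in 3, with a median of -0.44 (-0.18 with no filter). Itga11, a collagen receptor chain found mostly on fibroblasts, was at 32.3 and 29.7 FPKM with PBS and 4.65 and 5.74 FPKM at 5 µM (-2.37 ± 0.11, limma adjusted p = 0.000219). Among other alpha chains, Itgam, the CD11b chain of complement receptor 3, was at 54.7 and 50.5 FPKM with PBS and 25.6 and 24.2 FPKM at 5 µM, Itgal, the CD11a chain, at 99.001 and 94.2 FPKM with PBS and 54.5 and 59.1 FPKM at 5 µM and Itga9 at 7.50 and 8.06 FPKM with PBS and 2.84 and 2.59 FPKM at 5 µM. Itgb2, the beta chain that pairs with CD11a and CD11b, was not called, at 389 and 385 FPKM with PBS and 408 and 417 FPKM at 5 µM. The fibronectin receptor chain Itga5 fell from 43.3 and 44.4 FPKM to 30.7 and 28.9 FPKM. Without 1 sample 8, 8, 6 and 8 integrins fell and 0, 1, 0 and 1 rose.

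Genes of cell division were lower at 5 µM. Macrophages grown from marrow divide in response to CSF1, and transcripts of mitosis and DNA replication mark the share of cells in cycle. Of 28 mitosis genes tested, 27 fell, 0 rose and Pttg1 alone was not called, with a median of -0.90 (-1.44 with a pseudocount of 0.1 FPKM and -1.54 with voom). These were low transcripts: Plk1, which encodes a kinase that drives entry into mitosis, was at 6.10 and 6.11 FPKM with PBS and 1.62 and 1.44 FPKM at 5 µM (-1.49 ± 0.12, limma adjusted p = 0.000873). Cdk1, the kinase of mitotic entry, fell from 4.52 and 5.13 FPKM to 2.03 and 2.07 FPKM, and its cyclin gene Ccnb2 from 5.22 and 5.16 FPKM to 1.86 and 1.37 FPKM. Birc5, a subunit of the chromosomal passenger complex, was at 2.38 and 2.58 FPKM with PBS and 0.513 and 0.414 FPKM at 5 µM, and Incenp, another subunit, was the highest of the list, at 16.1 and 15.5 FPKM with PBS and 10.1 and 10.3 FPKM at 5 µM. The motor protein genes Kif11 and Kif20a were at 2.47 and 2.30 FPKM with PBS and 0.504 and 0.517 FPKM at 5 µM and at 5.59 and 5.15 FPKM with PBS and 1.77 and 1.26 FPKM at 5 µM. Ube2c and Cdc20, which act with the anaphase-promoting complex, were at 4.20 and 3.04 FPKM with PBS and 0.964 and 0.402 FPKM at 5 µM and at 7.72 and 9.07 FPKM with PBS and 3.33 and 2.63 FPKM at 5 µM. Birc5, Kif11 and Ube2c were under 1 FPKM in both 5 µM samples, passed the rule only through PBS and had to be lower. The 27 falls and the median include them and any other member that passed only through PBS. The rule therefore fixed part of that count in advance. With a filter of 5 FPKM 6 genes of the list were tested and 5 fell. Plk1 and Kif20a passed that filter only through PBS.

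Replication genes had a median nearer 0. Of 32 tested, 23 fell and 2 rose, with a median of -0.46, and fits without 1 sample gave 15, 17, 17 and 15 falls and 1, 0, 0 and 1 rises. All 6 subunits of the MCM2-7 helicase, which unwinds origins, fell: Mcm5 was at 15.1 and 12.9 FPKM with PBS and 5.76 and 5.29 FPKM at 5 µM and Mcm6 at 16.9 and 16.4 FPKM with PBS and 11.4 and 11.1 FPKM at 5 µM. Rrm2, the regulated subunit of ribonucleotide reductase, was at 8.11 and 7.43 FPKM with PBS and 2.14 and 1.33 FPKM at 5 µM (-1.70 ± 0.17, limma adjusted p = 0.00179), and Uhrf1, which guides maintenance of DNA methylation, at 9.11 and 7.07 FPKM with PBS and 2.29 and 2.34 FPKM at 5 µM. Pcna, the sliding clamp and also a p53 target, was higher in both 5 µM samples (53.7 and 52.6 FPKM with PBS and 64.8 and 63.3 FPKM at 5 µM, 0.27 ± 0.05). The Pcna call was lost without PBS replicate 2 (0.058) and without 5 µM replicate 1 (0.0595), the limma adjusted p in brackets.

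Among regulators of the G1 phase, 10 of 22 fell and 3 rose, with a median of -0.20 (-0.04 with a filter of 5 FPKM). Ccnd1, cyclin D1, was at 33.6 and 33.4 FPKM with PBS and 17.03 and 12.6 FPKM at 5 µM (-1.14 ± 0.17, limma adjusted p = 0.00654), Ccnd2 at 22.5 and 22.7 FPKM with PBS and 13.1 and 10.8 FPKM at 5 µM and Ccne1, cyclin E1, at 2.69 and 2.77 FPKM with PBS and 1.16 and 1.098 FPKM at 5 µM. Cdkn1c, which encodes the CDK inhibitor p57, was higher at 5 µM (0.966 and 1.73 FPKM with PBS and 5.05 and 5.45 FPKM at 5 µM), while Cdkn1b, which encodes p27, was lower (6.30 and 6.43 FPKM with PBS and 4.93 and 4.45 FPKM at 5 µM).

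Mitotic promoters shared a pair of short elements. The CCAAT box (CCAAT) is bound by NF-Y, and the cell cycle homology region, searched as TTTGAA and TTCGAA, is bound by the complexes that repress mitotic genes in resting cells. On either strand, 83.3% of the 24 mitosis genes with a RefSeq window held CCAAT and 75% held the cell cycle homology region, against 42.8% and 16.5% of all tested protein-coding genes with a window. The E2F site, searched as TTTGGCGC, TTTCCCGC and TTTGGCGG, was held by 38.5% of the 26 replication genes with a window and by none of the 24 mitosis genes, against 4.49% of all. Among all genes that fell, 46.3% held CCAAT, 19% the cell cycle homology region and 4.83% the E2F site. Among all that rose the shares were 41.1%, 15.5% and 3.3%. The list shares describe known genes of division and say nothing about the response to KN93. For 4 mitosis genes that hold both elements there, the 100 bases before the start are shown with CCAAT and the cell cycle homology region in capitals. Ube2c also holds both there and is not shown. ATTGG and TTCAAA are the same elements read on the opposite strand. The 4 stretches lie at chr10:69352913-69353012 on the minus strand (Cdk1), chr4:118437344-118437443 on the minus strand (Cdc20), chr7:80294376-80294475 on the plus strand (Prc1) and chr19:37376282-37376381 on the plus strand (Kif11) on GRCm38.p6.
Cdk1: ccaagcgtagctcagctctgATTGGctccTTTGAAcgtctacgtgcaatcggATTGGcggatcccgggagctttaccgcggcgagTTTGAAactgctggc
Cdc20: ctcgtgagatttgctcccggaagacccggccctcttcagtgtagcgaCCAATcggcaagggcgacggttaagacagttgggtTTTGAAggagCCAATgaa
Prc1: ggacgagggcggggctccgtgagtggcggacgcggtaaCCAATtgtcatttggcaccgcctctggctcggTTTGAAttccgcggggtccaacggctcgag
Kif11: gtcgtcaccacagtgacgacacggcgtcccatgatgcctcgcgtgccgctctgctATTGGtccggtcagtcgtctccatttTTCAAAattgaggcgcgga

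**Figure D4:**
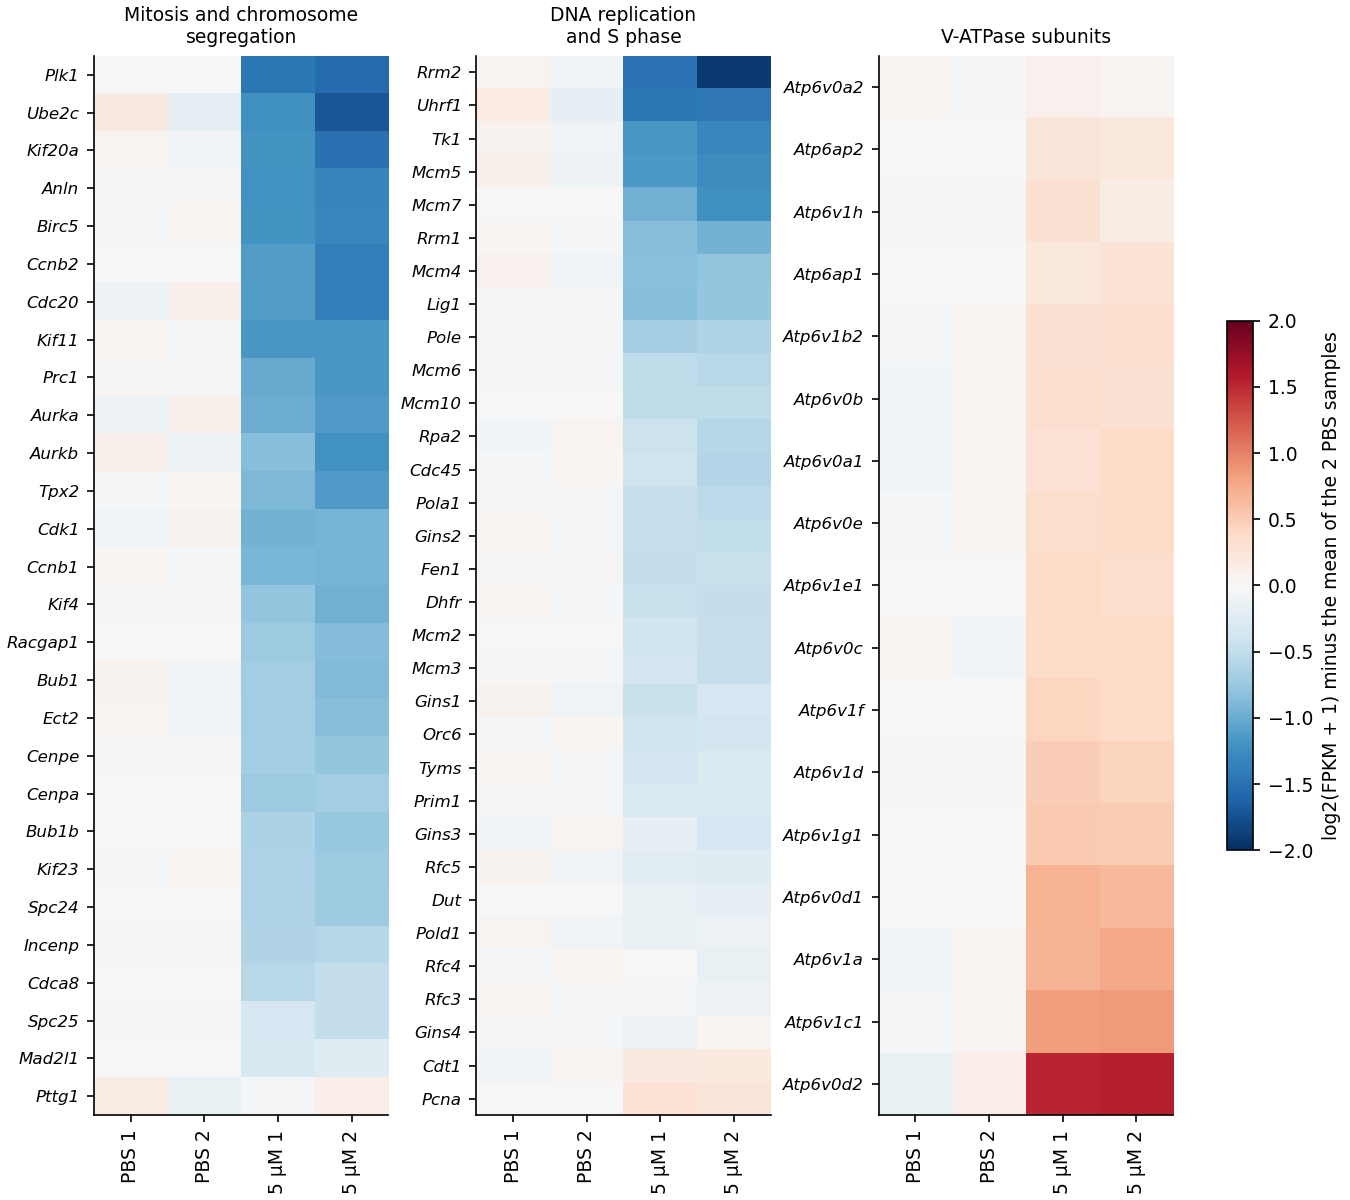
Level of each gene in each of the 4 samples as log2(FPKM + 1) minus the mean of the 2 PBS samples, for 28 mitosis genes, 32 replication genes and 17 V-ATPase subunits, each ordered by log2 change. Blue is lower and red higher than PBS. In the 5 µM columns 27 mitosis and 23 replication genes fell, 16 V-ATPase subunits rose, and Pttg1 was not called.

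Subunits of the proton pump of the lysosome rose together. The V-ATPase has a cytosolic V1 part that splits ATP and a membrane V0 part that passes protons, and it acidifies lysosomes. Of 17 subunit genes tested, 16 rose, 0 fell and Atp6v0a2 alone was not called, with a median of 0.37. Atp6v1a, the catalytic V1 subunit, was at 72.2 and 77.1 FPKM with PBS and 119.7 and 126 FPKM at 5 µM (0.71 ± 0.05, limma adjusted p = 0.000735). Atp6v0d2, a V0 subunit found in osteoclasts and some macrophages, changed most, from 22.7 and 27.4 FPKM to 73.6 and 75.1 FPKM, and its widely expressed counterpart Atp6v0d1 went from 87.4 and 88.7 FPKM to 144 and 139 FPKM. Tcirg1, which encodes the a3 subunit and was listed with the osteoclast genes, rose from 123 and 128 FPKM to 195 and 197 FPKM, beside Clcn7, the chloride-proton exchanger of lysosomes (59.3 and 58.5 FPKM with PBS and 111 and 116 FPKM at 5 µM). Most subunits changed by less than 0.5, and fits without 1 sample called 10, 12, 13 and 12.

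Regulators that place mTORC1 on the lysosome were higher in part. TFEB and its relatives of the MiT family switch on lysosomal genes when amino acids are scarce, and the Rag GTPases, Ragulator and folliculin tell mTORC1 of amino acids at the lysosomal surface. Of 29 genes tested, 14 rose and 2 fell, with a median of 0.19. Rragd, a Rag GTPase gene, was at 1.01 and 1.71 FPKM with PBS and 7.17 and 6.99 FPKM at 5 µM (1.79 ± 0.14, limma adjusted p = 0.000753), Rragc at 52.8 and 54.8 FPKM with PBS and 84.7 and 80.01 FPKM at 5 µM and Fnip2, a folliculin partner, at 30.1 and 35.7 FPKM with PBS and 60.7 and 68.5 FPKM at 5 µM. Flcn, folliculin, rose from 26.2 and 28.7 FPKM to 38.5 and 41.5 FPKM. Of the MiT factors, Tfeb was higher (5.27 and 5.42 FPKM with PBS and 7.59 and 7.82 FPKM at 5 µM), Tfec was lower (6.03 and 6.33 FPKM with PBS and 4.55 and 4.39 FPKM at 5 µM), and Mitf (11.03 and 10.8 FPKM with PBS and 10.3 and 11.2 FPKM at 5 µM) and Tfe3 (16.3 and 15.99 FPKM with PBS and 14.4 and 14.6 FPKM at 5 µM) were not called. Without 1 sample 7, 8, 9 and 8 genes of the list rose. The Tfeb call was lost without PBS replicate 1 (0.0602) and without 5 µM replicate 2 (0.0603), the limma adjusted p in brackets.

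Among cathepsins, the proteases of the lysosome, and their inhibitors, 8 of 15 rose and 1 fell, with a median of 0.31 (0.05 with no filter). Ctsz was at 1478 and 1407 FPKM with PBS and 2753 and 2751 FPKM at 5 µM (0.93 ± 0.07, limma adjusted p = 0.000743), Ctsb at 1554 and 1598 FPKM with PBS and 2208 and 2273 FPKM at 5 µM and the inhibitor gene Cstb at 451 and 446 FPKM with PBS and 795 and 749 FPKM at 5 µM. Ctsc, the protease that activates granule serine proteases of leukocytes, went the opposite way, from 175 and 151 FPKM to 61.7 and 63.9 FPKM. Ctsl (190.3 and 195 FPKM with PBS and 213 and 203 FPKM at 5 µM) and Lgmn (585 and 544 FPKM with PBS and 520.4 and 558 FPKM at 5 µM) were not called. The Ctsb call was lost with no filter (0.115) and with quantile normalization (0.0905), the limma adjusted p in brackets. Rises without 1 sample numbered 4, 6, 5 and 4. Autophagy genes rose in 10 and fell in 8 of 34, with a median of 0.08. Sqstm1, which encodes the cargo receptor p62, was at 134 and 144 FPKM with PBS and 273 and 246 FPKM at 5 µM, Optn at 4.87 and 5.21 FPKM with PBS and 10.4 and 9.79 FPKM at 5 µM and Tecpr1, which joins autophagosomes to lysosomes, at 9.86 and 11.3 FPKM with PBS and 32.1 and 34.2 FPKM at 5 µM. The initiating kinase gene Ulk2 fell from 17.4 and 16.98 FPKM to 12.2 and 12.3 FPKM, and Map1lc3b (21.4 and 22.1 FPKM with PBS and 22.6 and 21.4 FPKM at 5 µM) and Becn1 (14.6 and 15.3 FPKM with PBS and 15.1 and 14.4 FPKM at 5 µM) were not called. Without 1 sample 7, 6, 6 and 7 autophagy genes rose and 3, 4, 4 and 3 fell.

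MiT factors bind the CLEAR element, an E-box searched here as TCACGTGA, which is its own reverse complement. It stood in a window of 3 of the 11 V-ATPase genes and 2 of the 12 cathepsin and cystatin genes with a window, and of 2.43% of all tested protein-coding genes with one. Of the 28 MiT and mTORC1 list genes with a window, 0 held it. Its share was 3.66% among all genes that rose and 1.33% among all that fell. RefSeq windows were found for 64.7% of the V-ATPase genes, which is too few for their share to be used as a check, and for 80% of the cathepsin and cystatin genes. For 3 genes that rose, the 140 bases before the start are shown with the element in capitals, because they hold it ahead of the start. The Ctsd call was lost with no filter (0.264), without PBS replicate 1 (0.103), without PBS replicate 2 (0.0548), without 5 µM replicate 1 (0.0717) and without 5 µM replicate 2 (0.067), the limma adjusted p in brackets. The Ctsa call was lost without PBS replicate 1 (0.0595) and without 5 µM replicate 2 (0.0558), the limma adjusted p in brackets. The stretches lie at chr16:44139260-44139399 on the minus strand (Atp6v1a), chr7:142387828-142387967 on the minus strand (Ctsd, 2455 and 2672 FPKM with PBS and 3642 and 3593 FPKM at 5 µM) and chr2:164833633-164833772 on the plus strand (Ctsa, 286 and 292 FPKM with PBS and 369 and 378 FPKM at 5 µM).
Atp6v1a: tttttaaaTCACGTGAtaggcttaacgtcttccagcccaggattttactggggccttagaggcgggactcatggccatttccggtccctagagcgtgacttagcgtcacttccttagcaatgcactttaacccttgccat
Ctsd: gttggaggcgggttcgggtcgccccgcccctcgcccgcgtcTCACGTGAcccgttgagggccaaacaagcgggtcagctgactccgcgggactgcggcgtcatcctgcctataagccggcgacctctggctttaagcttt
Ctsa: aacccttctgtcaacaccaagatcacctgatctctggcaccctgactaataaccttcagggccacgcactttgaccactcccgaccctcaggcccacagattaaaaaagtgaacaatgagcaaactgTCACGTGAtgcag

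Lipid-handling genes of phagocytes shifted in both directions. Of 28 genes of the TREM2 pathway and of lipid-associated macrophages, cells that take up lipid in fat tissue, atheroma and the injured brain, 18 rose and 3 fell, with a median of 0.41. Lgals3, galectin 3, was at 473 and 534 FPKM with PBS and 1321 and 1271 FPKM at 5 µM (1.36 ± 0.09, limma adjusted p = 0.000525), Cd63, a tetraspanin of lysosomes, at 91.7 and 99.3 FPKM with PBS and 166 and 155 FPKM at 5 µM and Fabp5, a fatty acid binding protein, at 193 and 212 FPKM with PBS and 558 and 578 FPKM at 5 µM. Trem2 itself was at 107 and 119 FPKM with PBS and 144 and 148 FPKM at 5 µM (0.37 ± 0.09, limma adjusted p = 0.0279), and its adaptor Tyrobp, at 977 and 1002 FPKM with PBS and 1073 and 1048 FPKM at 5 µM, was not called. Apoe was lower, at 6149 and 6657 FPKM with PBS and 4649 and 4656 FPKM at 5 µM, as was Lpl, lipoprotein lipase, at 40.2 and 40.4 FPKM with PBS and 27.4 and 28.97 FPKM at 5 µM. The Trem2 call was lost with no filter (0.0842), without PBS replicate 1 (0.132), without 5 µM replicate 1 (0.0925) and without 5 µM replicate 2 (0.114), the limma adjusted p in brackets. The Apoe call was lost with no filter (0.468), without PBS replicate 1 (0.102), without PBS replicate 2 (0.158), without 5 µM replicate 1 (0.116) and without 5 µM replicate 2 (0.114), the limma adjusted p in brackets. Without 1 sample 11, 15, 11 and 12 genes of the list rose and 1, 1, 2 and 2 fell.

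Of 31 genes of fatty acid uptake, storage and oxidation, 11 rose and 6 fell, with a median of 0.16 (0.10 without 5 µM replicate 1). Pparg, the nuclear receptor that drives fatty acid storage, was at 2.68 and 2.9997 FPKM with PBS and 6.43 and 6.26 FPKM at 5 µM (0.94 ± 0.07, limma adjusted p = 0.00067). The lipid droplet coat genes Plin3 and Plin2 rose from 20.5 and 21.1 FPKM to 33.6 and 33.5 FPKM and from 344 and 387 FPKM to 502 and 497 FPKM, and Acsl1, which activates fatty acids, from 7.19 and 5.98 FPKM to 12.4 and 13.04 FPKM. The scavenger receptor Cd36 (205 and 234 FPKM with PBS and 227 and 219 FPKM at 5 µM) and Cpt1a, the entry step of mitochondrial oxidation (58.2 and 62.2 FPKM with PBS and 66.8 and 67.5 FPKM at 5 µM), were not called, and Ucp2 fell from 149.7 and 155 FPKM to 97.9 and 96.6 FPKM. Falls numbered 2, 3, 2 and 2 without 1 sample.

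Genes of sterol transport changed in both directions. Among 19 LXR targets and efflux genes, 5 rose and 7 fell, with a median of 0.05. Abca1, which exports cholesterol to apolipoproteins, fell from 69.4 and 75.4 FPKM to 31.98 and 33.9 FPKM (-1.11 ± 0.07, limma adjusted p = 0.000505), and Abca9 from 7.01 and 6.86 FPKM to 1.13 and 1.32 FPKM. Soat1, which esterifies cholesterol for storage, rose from 31.8 and 34.1 FPKM to 49.01 and 53.2 FPKM, and Npc1, which carries it out of lysosomes, from 31.5 and 35.1 FPKM to 50.4 and 50.7 FPKM. Abcg1 was not called, at 13.4 and 14.9 FPKM with PBS and 13.6 and 15.9 FPKM at 5 µM. Rises without 1 sample numbered 3, 4, 3 and 2. In cholesterol synthesis and uptake 7 of 24 fell and 3 rose, with a median of -0.14 (-0.09 with a filter of 5 FPKM and -0.08 without 5 µM replicate 2) and 4, 3, 4 and 2 falls and 0, 0, 0 and 0 rises without 1 sample. Stard4, a sterol carrier, was at 6.40 and 6.49 FPKM with PBS and 3.56 and 3.51 FPKM at 5 µM. In fatty acid synthesis 5 of 15 rose and 2 fell, and Scd1, which desaturates fatty acids, went from 3.22 and 2.93 FPKM to 5.30 and 4.73 FPKM. Rises in fatty acid synthesis numbered 3, 3, 3 and 4 and falls 1, 1, 1 and 1 without 1 sample.

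Enzymes and receptors of prostaglandins and leukotrienes rose in 6 and fell in 7 of 22, with a median of -0.05. Ptgs1, the constitutive cyclooxygenase, was at 57.1 and 65.5 FPKM with PBS and 23.8 and 21.7 FPKM at 5 µM (-1.39 ± 0.10, limma adjusted p = 0.000577). Hpgd, which inactivates prostaglandins, fell from 5.39 and 5.64 FPKM to 1.01 and 1.01 FPKM and Cysltr1, a leukotriene receptor gene, from 10.4 and 9.79 FPKM to 4.68 and 4.80 FPKM, while the prostacyclin receptor gene Ptgir rose from 2.49 and 2.03 FPKM to 5.64 and 5.43 FPKM. Rises without 1 sample numbered 2, 3, 3 and 3.

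Receptors at the cell surface were more often lower than higher. Of 19 tested chemoattractant receptors, 10 fell and 3 rose, with a median of -0.45. Fpr1, which senses formylated peptides of bacteria, was at 122 and 86.8 FPKM with PBS and 23.3 and 25.4 FPKM at 5 µM (-2.04 ± 0.16, limma adjusted p = 0.000735). Ccr1 fell from 22.5 and 24.5 FPKM to 15.2 and 13.3 FPKM and Ccr2, the receptor of the chemokine CCL2, from 1.45 and 1.55 FPKM to 0.326 and 0.448 FPKM. C5ar1, the complement C5a receptor, was at 176 and 179.9 FPKM with PBS and 116 and 112 FPKM at 5 µM. Among the 3 that rose were receptors of lipid mediators, S1pr2 from 14.4 and 14.1 FPKM to 19.1 and 19.4 FPKM and Ptafr, the receptor of platelet-activating factor, from 51.9 and 53.4 FPKM to 69.8 and 78.7 FPKM. Neutrophils express Fpr1 and C5ar1 too; the neutrophil marker sums above were lower at 5 µM, and their part in these falls was not tested.

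Sensors of microbial products fell more often than they rose. Of 23 Toll-like receptors and their partners, 10 fell and 4 rose, with a median of -0.18 (-0.29 with a filter of 5 FPKM). Tlr2, a sensor of lipopeptides, was at 75.6 and 61.3 FPKM with PBS and 41.6 and 43.1 FPKM at 5 µM (-0.67 ± 0.11, limma adjusted p = 0.00775), Ly86, the partner of CD180, at 60.5 and 55.5 FPKM with PBS and 38.6 and 39.9 FPKM at 5 µM and Unc93b1, which escorts nucleic acid sensors to endosomes, at 381 and 371 FPKM with PBS and 287 and 297 FPKM at 5 µM. Cd180, a relative of TLR4 that tempers its signal, rose from 30 and 27.8 FPKM to 51.7 and 53.7 FPKM. Tlr9 (25.2 and 20.8 FPKM with PBS and 16.6 and 20.8 FPKM at 5 µM), Tlr3 (8.11 and 7.78 FPKM with PBS and 7.01 and 7.23 FPKM at 5 µM) and Ly96 (11.6 and 11.3 FPKM with PBS and 12.8 and 12.8 FPKM at 5 µM) were not called. The Toll-like list had 6, 8, 4 and 6 falls and 2, 2, 2 and 2 rises without 1 sample.

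Of 16 C-type lectins tested, 7 fell and 3 rose, with a median of -0.32 (-0.01 with no filter, -0.15 without PBS replicate 1 and -0.49 without PBS replicate 2). Mrc1, the mannose receptor, was at 76.5 and 71.7 FPKM with PBS and 37.5 and 36.2 FPKM at 5 µM (-0.99 ± 0.10, limma adjusted p = 0.00194), and Clec4a2, an inhibitory lectin, at 49.9 and 39.4 FPKM with PBS and 14.1 and 15.4 FPKM at 5 µM. Clec7a, the beta-glucan receptor dectin-1, was higher at 5 µM (89.4 and 104 FPKM with PBS and 141 and 142 FPKM at 5 µM). The Clec7a call was lost without PBS replicate 1 (0.0575), without 5 µM replicate 1 (0.0559) and without 5 µM replicate 2 (0.0603), the limma adjusted p in brackets. Clec4a family members are close in sequence, and fragments may be shared among them.

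Of 16 Fc and complement receptors, 7 fell and 1 rose, with a median of -0.21 (-0.11 with no filter, -0.09 with a filter of 5 FPKM and -0.13 without 5 µM replicate 1). Fcgrt, the neonatal Fc receptor that recycles IgG, was at 66.95 and 65.999 FPKM with PBS and 36.7 and 37.6 FPKM at 5 µM (-0.82 ± 0.05, limma adjusted p = 0.000446), and Fcgr3, a receptor of low affinity for IgG, at 451 and 444 FPKM with PBS and 298 and 281 FPKM at 5 µM. Fcgr1 (295 and 255 FPKM with PBS and 250.1 and 264 FPKM at 5 µM) and Fcgr2b (48.5 and 43.8 FPKM with PBS and 48.2 and 49.4 FPKM at 5 µM) were not called. Without 1 sample 4, 6, 4 and 5 fell and 0, 0, 0 and 0 rose. Of 12 scavenger receptors, 5 fell and 1 rose, with a median of -0.17 (-0.10 without 5 µM replicate 1). Marco, which binds bacteria and particles, was at 217 and 203 FPKM with PBS and 65.6 and 63.5 FPKM at 5 µM (-1.69 ± 0.05, limma adjusted p = 0.000121), and Stab1 at 233 and 226 FPKM with PBS and 145 and 153 FPKM at 5 µM. Cd68, an endosomal glycoprotein of macrophages, rose from 842 and 861 FPKM to 1532 and 1508 FPKM. Scavenger falls numbered 3, 3, 4 and 3 without 1 sample.

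Receptors of growth and guidance factors were split, with 4 rises and 4 falls among 18 and a median of -0.03. Csf1r, the receptor of the main macrophage growth factor, was at 657 and 642 FPKM with PBS and 439 and 444 FPKM at 5 µM (-0.56 ± 0.07, limma adjusted p = 0.00288). Csf2ra, the alpha chain of the GM-CSF receptor, rose from 148 and 155 FPKM to 209 and 206 FPKM, while its beta chain gene Csf2rb fell from 86.5 and 85.7 FPKM to 63.9 and 66.03 FPKM. The semaphorin receptor genes Plxna1 and Plxnd1 rose from 56.5 and 60.6 FPKM to 142 and 150.3 FPKM and from 25.2 and 26.3 FPKM to 56.7 and 56.1 FPKM. Among receptors of nucleotides and adenosine, 5 of 12 fell and 3 rose. P2ry2 rose from 4.70 and 4.11 FPKM to 7.79 and 8.27 FPKM, and Adora2b, a low-affinity adenosine receptor gene, fell from 6.02 and 4.84 FPKM to 2.06 and 1.76 FPKM. The purinergic falls numbered 2, 2, 2 and 3 and the rises 1, 1, 1 and 1 without 1 sample.

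Ligands that restrain or aid T cells rose in 7 and fell in 6 of 15. Cd274, which encodes PD-L1, was at 48.4 and 48.5 FPKM with PBS and 91.1 and 101 FPKM at 5 µM (0.97 ± 0.08, limma adjusted p = 0.00101). Vsir, which encodes VISTA, fell from 94.5 and 99.1 FPKM to 63.5 and 66.99 FPKM, and the paired receptor gene Pilra from 40.7 and 30.1 FPKM to 12.2 and 11.5 FPKM. Cd40, at 4.71 and 3.59 FPKM with PBS and 4.55 and 4.36 FPKM at 5 µM, was not called. Without 1 sample 2, 4, 2 and 3 rose and 2, 3, 2 and 3 fell.

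Among 47 transcription factors of macrophages, 16 fell and 7 rose, beside 16.1% that fell and 15.6% that rose over all genes. Their median was -0.08, from which no direction is read. Hif1a, the oxygen-regulated factor, was at 53.6 and 51.5 FPKM with PBS and 28.96 and 26.9 FPKM at 5 µM (-0.89 ± 0.06, limma adjusted p = 0.000559), and Klf2, which restrains macrophage activation, at 4.21 and 3.76 FPKM with PBS and 1.32 and 1.62 FPKM at 5 µM. Maf fell from 61.6 and 61.5 FPKM to 41.8 and 44.4 FPKM and Cebpd from 4.37 and 3.81 FPKM to 1.80 and 2.01 FPKM. Bhlhe41, a repressor found in self-renewing macrophages that is also part of the circadian clock, rose from 3.53 and 4.59 FPKM to 12.9 and 11.7 FPKM, and Atf3, a stress-induced repressor, from 47.4 and 55.6 FPKM to 78.4 and 82.5 FPKM. The lineage factors Irf8 (33.02 and 35.2 FPKM with PBS and 34.03 and 34.3 FPKM at 5 µM) and Runx1 (8.58 and 8.73 FPKM with PBS and 7.86 and 8.20 FPKM at 5 µM) were not called.

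The NF-kappaB subunit genes split. Nfkb1 and Nfkb2 fell, and Rela, Relb and Rel were not called. Of 25 tested, 8 fell and 2 rose, beside 16.1% that fell and 15.6% that rose over all genes. The list median was -0.13 (-0.08 without PBS replicate 1 and -0.21 without PBS replicate 2). Nfkbia, the classical inhibitor, was at 101 and 89.4 FPKM with PBS and 63.9 and 62.1 FPKM at 5 µM (-0.58 ± 0.07, limma adjusted p = 0.00329). Rela (40.4 and 39.3 FPKM with PBS and 41.6 and 38.9 FPKM at 5 µM), Rel (5.98 and 6.22 FPKM with PBS and 5.37 and 5.62 FPKM at 5 µM) and Tnfaip3 (8.35 and 7.15 FPKM with PBS and 6.41 and 6.49 FPKM at 5 µM) were not called, nor was the target Tnf (12.7 and 9.90 FPKM with PBS and 10.4 and 11.1 FPKM at 5 µM). Without 1 sample 6, 9, 5 and 4 fell and 1, 0, 2 and 0 rose.

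Secreted factors rose in 8 and fell in 11 of 32, with a median of 0.06. Gdf15, a stress-induced member of the TGF-beta family, was at 6.02 and 6.75 FPKM with PBS and 21.5 and 21.5 FPKM at 5 µM (1.61 ± 0.07, limma adjusted p = 0.000192), Vegfb at 6.97 and 6.99 FPKM with PBS and 16.9 and 16.9 FPKM at 5 µM and Il1rn, the interleukin-1 receptor antagonist, at 5.89 and 4.88 FPKM with PBS and 9.10 and 9.28 FPKM at 5 µM. Il18 fell from 13.6 and 12.9 FPKM to 8.62 and 8.96 FPKM and Lif from 2.72 and 2.52 FPKM to 1.40 and 1.21 FPKM. Spp1 (623 and 684 FPKM with PBS and 799 and 718 FPKM at 5 µM), Igf1 (21.6 and 23.3 FPKM with PBS and 24.1 and 24.01 FPKM at 5 µM) and Il1a (4.42 and 3.99 FPKM with PBS and 4.52 and 5.57 FPKM at 5 µM) were not called. Without 1 sample 6, 6, 7 and 4 rose and 8, 6, 7 and 7 fell.

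Interferon-stimulated genes were called about as often as all genes (31.7%). Of 33 type I interferon-stimulated genes, 10 rose and 1 fell, with a median of 0.10. Rsad2, which encodes the antiviral enzyme viperin, was at 47.02 and 38.1 FPKM with PBS and 92.6 and 99.6 FPKM at 5 µM (1.16 ± 0.12, limma adjusted p = 0.00163), and Bst2, which encodes tetherin, at 1309 and 1240.5 FPKM with PBS and 1929 and 1915 FPKM at 5 µM. The Bst2 call was lost with no filter (0.0671), the limma adjusted p in brackets. Ifi27l2a fell from 714 and 654 FPKM to 433 and 435 FPKM. Isg15 (316 and 253 FPKM with PBS and 295 and 276 FPKM at 5 µM) and Mx1 (51.4 and 41.9 FPKM with PBS and 45.5 and 48.2 FPKM at 5 µM) were not called, and 11, 5, 5 and 5 genes rose without 1 sample. Of 16 interferon-induced GTPases, 2 rose and 4 fell. Gbp11, a guanylate-binding protein gene with close relatives that may share its fragments, was at 0.607 and 0.472 FPKM with PBS and 2.21 and 3.002 FPKM at 5 µM. Falls of these GTPases numbered 0, 3, 0 and 0 and rises 4, 2, 2 and 2 without 1 sample. Of 13 genes of the immunoproteasome and peptide loading, 6 rose and 1 fell, with a median of 0.21, and 4, 2, 3 and 2 rose and 0, 0, 0 and 0 fell without 1 sample.

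Genes of coagulation and fibrinolysis changed in both directions. Of 18 tested, 4 rose and 8 fell, with a median of -0.34 (-0.22 with no filter). F10, which encodes coagulation factor X, was at 4.99 and 4.65 FPKM with PBS and 18.8 and 19.98 FPKM at 5 µM (1.81 ± 0.06, limma adjusted p = 0.000121). Vwf, which encodes von Willebrand factor, was at 0.669 and 0.782 FPKM with PBS and 4.86 and 5.21 FPKM at 5 µM, F7, factor VII, at 4.46 and 2.94 FPKM with PBS and 9.01 and 8.54 FPKM at 5 µM and Procr, the endothelial protein C receptor, at 3.75 and 5.16 FPKM with PBS and 9.85 and 9.08 FPKM at 5 µM. F3, tissue factor, which starts coagulation, fell from 5.41 and 5.15 FPKM to 1.46 and 0.942 FPKM, and Plat, tissue plasminogen activator, from 1.25 and 1.23 FPKM to 0.395 and 0.301 FPKM. Vwf marks endothelium and platelets. Of the 3 endothelial markers tested, Pecam1 fell from 5.63 and 5.18 FPKM to 0.427 and 0.382 FPKM, Plvap fell from 1.37 and 1.03 FPKM to 0.459 and 0.200 FPKM and Eng rose from 30.1 and 31.02 FPKM to 45.98 and 47.1 FPKM. The Plvap call was lost without PBS replicate 1 (0.0806) and without 5 µM replicate 2 (0.0655), the limma adjusted p in brackets. Of the 4 platelet markers tested, Vwf and Treml1 rose and Pf4 and Ppbp fell, and Gp9 stayed under 1 FPKM. The part of such cells in these changes was not tested. Falls numbered 5, 7, 6 and 7 without 1 sample.

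Amino acid supply genes rose in part, beside 15.6% that rose and 16.1% that fell over all genes. The called share of the synthetases was near the 31.7% over all genes. Of 20 cytosolic aminoacyl-tRNA synthetases, which load tRNAs, 7 rose, 0 fell and 13 were not called, with a median of 0.09. Aars was at 23.3 and 22.6 FPKM with PBS and 35.2 and 34.4 FPKM at 5 µM (0.58 ± 0.05, limma adjusted p = 0.000975) and Sars at 21.8 and 21.9 FPKM with PBS and 33.6 and 31.2 FPKM at 5 µM, while Nars (106 and 106 FPKM with PBS and 105 and 105 FPKM at 5 µM) and Dars (13.1 and 13.7 FPKM with PBS and 13.5 and 13.4 FPKM at 5 µM) were not called. Of 21 amino acid transporters, 8 rose and 2 fell (1, 0, 0 and 1 falls without 1 sample). Slc6a8, which imports creatine, was at 13.6 and 16.3 FPKM with PBS and 37.8 and 35.1 FPKM at 5 µM, Slc7a2, an arginine transporter gene, at 2.14 and 1.89 FPKM with PBS and 5.41 and 5.42 FPKM at 5 µM and Slc7a11, the cystine transporter, at 1.0998 and 1.56 FPKM with PBS and 4.54 and 3.41 FPKM at 5 µM. Slc3a2, the heavy chain that pairs with Slc7a11, rose from 96.95 and 101 FPKM to 149 and 143 FPKM. Among enzymes of serine, one-carbon and asparagine synthesis 3 of 14 rose and 2 fell, a called share near the 31.7% over all genes. Mthfd2, a mitochondrial folate enzyme, was at 14.3 and 13.2 FPKM with PBS and 20.7 and 20.9 FPKM at 5 µM. The called share of ribosome biogenesis genes was below 31.7%. The median of ribosome biogenesis genes was 0.06, with 6 of 29 rising and 1 falling, and 3, 4, 4 and 4 rising and 0, 0, 0 and 0 falling without 1 sample. The rises of the synthesis enzymes numbered 1, 1, 1 and 1 and their falls 0, 0, 3 and 0 without 1 sample.

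Genes of redox and metal handling changed in both directions. Of 21 glutathione transferases and synthesis genes, 10 rose and 3 fell, with a median of 0.29 (0.11 with no filter). Gclc, the catalytic subunit of the enzyme that limits glutathione synthesis, was at 10.2 and 11.002 FPKM with PBS and 16.8 and 15.5 FPKM at 5 µM, and Gpx4, which reduces lipid peroxides, at 81.9 and 85.3 FPKM with PBS and 111 and 111 FPKM at 5 µM, both higher at 5 µM. Gpx3, a secreted peroxidase, fell from 31.5 and 29.02 FPKM to 18.1 and 18.2 FPKM. Without 1 sample 4, 6, 5 and 5 rose. The metal-binding metallothionein genes were higher: Mt2 was at 18.6 and 21.6 FPKM with PBS and 89.9 and 73.3 FPKM at 5 µM (1.97 ± 0.11, limma adjusted p = 0.000396) and Mt1 at 42.8 and 51.4 FPKM with PBS and 86.4 and 77.5 FPKM at 5 µM. Slc30a1, the zinc exporter of the plasma membrane, rose from 6.63 and 6.80 FPKM to 10.01 and 9.76 FPKM, and 3 of 16 metallothionein and zinc transporter genes rose and 2 fell (2, 1, 2 and 1 falls without 1 sample). The called share of the metallothionein and zinc transporter list was near the 31.7% over all genes. In iron handling 7 of 21 rose and 6 fell. Fth1, ferritin heavy chain, was the most abundant transcript of both 5 µM samples, at 15160 and 15191 FPKM with PBS and 24501 and 24771 FPKM at 5 µM (0.70 ± 0.11, limma adjusted p = 0.00773), and Slc40a1, the iron exporter ferroportin, fell from 14.7 and 16.5 FPKM to 10.6 and 11.5 FPKM. The Fth1 call was lost with no filter (0.719), with quantile normalization (0.258), without PBS replicate 1 (0.0697) and without PBS replicate 2 (0.0623), the limma adjusted p in brackets. Rises in iron handling numbered 2, 2, 3 and 3 without 1 sample.

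Glycolytic and HIF-1 target genes had 8 rises and 5 falls among 32, beside 15.6% that rose and 16.1% that fell over all genes. Their median was 0.05. Ndrg1, a hypoxia- and stress-induced gene, was at 2.14 and 1.92 FPKM with PBS and 6.13 and 6.14 FPKM at 5 µM (1.24 ± 0.06, limma adjusted p = 0.000264), and Hk3, a hexokinase of myeloid cells, at 102 and 98.1 FPKM with PBS and 159.6 and 176 FPKM at 5 µM. Ldha, lactate dehydrogenase, was not called, at 283 and 280.1 FPKM with PBS and 296 and 268 FPKM at 5 µM. Without 1 sample 5, 5, 4 and 7 rose and 2, 2, 4 and 2 fell. Chaperones of the endoplasmic reticulum rose in 6 and fell in 3 of 21, with a median of 0.00 and 2, 2, 2 and 3 rises and 2, 2, 2 and 1 falls without 1 sample. Sdf2l1 rose from 83.4 and 80.998 FPKM to 114 and 113 FPKM, and Pdia4 fell from 79.1 and 79.9 FPKM to 63.5 and 59.4 FPKM. Cytosolic heat shock genes rose in 2 and fell in 3 of 19, a called share below the 31.7% over all genes. Hspb1, a small heat shock protein that binds actin filaments, went from 20.6 and 23.6 FPKM to 7.18 and 4.09 FPKM. The heat shock falls numbered 1, 1, 2 and 1 and the rises 1, 1, 1 and 2 without 1 sample. Among BCL2 family and death receptor genes 9 of 30 rose and 3 fell, with a median of -0.01 and 5, 5, 5 and 5 rises and 1, 1, 1 and 1 falls without 1 sample. Bcl2a1d, an antiapoptotic gene with close copies that may share fragments, was at 14.4 and 14.2 FPKM with PBS and 35.3 and 34.5 FPKM at 5 µM, and Mcl1, at 103 and 102 FPKM with PBS and 101 and 101 FPKM at 5 µM, was not called.

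Smaller lists held a few larger changes. Of 11 potassium and volume channel genes and regulators, 3 fell and 2 rose (0, 1, 0 and 0 rises without 1 sample), led by Kctd12 (38.9 and 37.4 FPKM with PBS and 16.9 and 17.7 FPKM at 5 µM). Of 15 circadian clock genes, 5 rose and 2 fell, with a median of 0.00. Of 15 osteoclast genes, 7 rose and 6 fell, among them Mmp9 (118 and 113 FPKM with PBS and 36.4 and 34.7 FPKM at 5 µM), a gelatinase, and Tnfrsf11a, which encodes the receptor RANK (21.6 and 21.2 FPKM with PBS and 14.7 and 15.3 FPKM at 5 µM). The counts of rises and falls without 1 sample were 2, 2, 1 and 3 and 0, 0, 1 and 0 for the clock list and 3, 4, 3 and 3 and 4, 3, 4 and 3 for the osteoclast list.

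The 25 largest rises included genes of lipid handling and of antigen presentation. Fabp3 was at 7.09 and 7.33 FPKM with PBS and 47.2 and 48.6 FPKM at 5 µM (2.58 ± 0.04, limma adjusted p = 4.02e-05) and Fabp4 at 6.25 and 7.41 FPKM with PBS and 36.2 and 34.9 FPKM at 5 µM, both fatty acid carriers, and Mgll, which splits monoacylglycerols, was at 1.22 and 1.39 FPKM with PBS and 9.88 and 9.52 FPKM at 5 µM. H2-M2, a nonclassical class I gene with close relatives, was at 4.07 and 3.19 FPKM with PBS and 30.2 and 30.9 FPKM at 5 µM (2.77 ± 0.10, limma adjusted p = 0.000121), and H2-Aa, a chain of class II, at 22.7 and 22.4 FPKM with PBS and 70.6 and 74.6 FPKM at 5 µM. Cst7, a cystatin that inhibits cathepsins, was at 2.94 and 2.65 FPKM with PBS and 20.3 and 20.7 FPKM at 5 µM, Anpep, an aminopeptidase of the cell surface, at 35.96 and 36.8 FPKM with PBS and 181 and 192 FPKM at 5 µM and Ddit3, a stress-induced transcription factor gene, at 18.1 and 16.7 FPKM with PBS and 55.6 and 54.2 FPKM at 5 µM. C77080 was at 2.81 and 3.39 FPKM with PBS and 19.6 and 19.1 FPKM at 5 µM and the T cell receptor segment Trav13-4-dv7 at 1.06 and 0.550 FPKM with PBS and 8.38 and 7.22 FPKM at 5 µM. The largest changes were picked among called genes without overlap between the groups, so both 5 µM samples lay above both PBS samples by that rule.

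Other large rises had other roles. Hpse, which encodes heparanase, an enzyme that cuts heparan sulfate, was at 19.5 and 20.7 FPKM with PBS and 71.99 and 77.7 FPKM at 5 µM (1.85 ± 0.06, limma adjusted p = 0.000121). Stra6l, a receptor for retinol binding proteins, was at 1.59 and 1.65 FPKM with PBS and 7.47 and 8.15 FPKM at 5 µM, Tent5c, a poly(A) polymerase, at 2.96 and 4.38 FPKM with PBS and 16.03 and 15.7 FPKM at 5 µM and Ahnak2 at 2.25 and 2.57 FPKM with PBS and 9.83 and 9.38 FPKM at 5 µM. Orm1, an acute-phase plasma protein gene with close relatives, was under 1 FPKM in both PBS samples (0.288 and 0.273 FPKM) and at 4.36 and 2.98 FPKM at 5 µM. The miRNA entries Mir7682, Mir7240 and Mir7683 passed the rule as well, but a gene this short takes a high FPKM from a few fragments: Mir7240 was at 0 and 0.609 FPKM with PBS and 3.93 and 3.73 FPKM at 5 µM, Mir7682 at 0 and 1.22 FPKM with PBS and 3.27 and 8.71 FPKM at 5 µM and Mir7683 at 0.609 and 2.31 FPKM with PBS and 6.22 and 7.10 FPKM at 5 µM. The Mir7240 call was lost with a pseudocount of 0.1 FPKM (0.0575), the limma adjusted p in brackets. The Mir7682 call was lost with no filter (0.0854) and with that pseudocount (0.0529), and the Mir7683 call with no filter (0.143). Mir7683 also lost it with no intensity trend (0.0566), with the replicate number as a block (0.0699) and with voom (0.0732), again the limma adjusted p. The T cell receptor segment Trav14-3 was at 0.0968 and 0.735 FPKM with PBS and 2.57 and 3.66 FPKM at 5 µM, in samples in which Cd3d was listed at 0 throughout. On GRCm38, Hpse lies on chromosome 5, 100679484 to 100719716, F10 on chromosome 8, 13037308 to 13056676 and Rragd on chromosome 4, 32983037 to 33022180.

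The 2 falls with the largest log2 change were those of Cx3cr1, a chemokine receptor, at 36.3 and 43.5 FPKM with PBS and 3.07 and 2.32 FPKM at 5 µM (-3.47 ± 0.13, limma adjusted p = 0.000141), and of Il1b, an inflammatory cytokine, at 21.6 and 11.6 FPKM with PBS and 0.299 and 0.870 FPKM at 5 µM (-3.44 ± 0.30, limma adjusted p = 0.00107). The PBS samples of Il1b lay further apart than those of Cx3cr1. Il1b was also under 1 FPKM in both 5 µM samples, so it passed the rule only through PBS and had to be lower. F13a1, a transglutaminase of coagulation, was at 41.01 and 42.7 FPKM with PBS and 6.07 and 5.41 FPKM at 5 µM, Cemip, which takes part in the breakdown of hyaluronan, at 22.5 and 19.01 FPKM with PBS and 2.62 and 2.41 FPKM at 5 µM and Marcksl1, an actin-binding protein gene, at 66.8 and 49.2 FPKM with PBS and 9.79 and 7.82 FPKM at 5 µM. Cd14, a coreceptor for lipopolysaccharide, was at 389 and 381 FPKM with PBS and 88.2 and 71.01 FPKM at 5 µM and Tubb3, a tubulin gene best known from neurons, at 17.6 and 17.6 FPKM with PBS and 3.86 and 3.05 FPKM at 5 µM. Actg2, an actin of smooth muscle, was at 45.9 and 42.8 FPKM with PBS and 8.46 and 6.63 FPKM at 5 µM, beside the lower smooth muscle marker sums, whose part was not tested.

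Also among the large falls, Txnip, which restrains glucose uptake and binds thioredoxin, was at 98.8 and 97.2 FPKM with PBS and 20.8 and 20.9 FPKM at 5 µM (-2.18 ± 0.05, limma adjusted p = 5.41e-05). Dmpk, a kinase gene of muscle, fell from 34.2 and 33.5 FPKM to 5.98 and 5.59 FPKM, Dio3, which inactivates thyroid hormone, from 13.3 and 10.6 FPKM to 1.55 and 1.49 FPKM and Fscn1, which bundles actin, from 38.1 and 41.4 FPKM to 10.6 and 7.45 FPKM. Cthrc1, Olfml2b and Tnn, secreted matrix proteins, were at 11.3 and 11.1 FPKM with PBS and 1.95 and 1.52 FPKM at 5 µM, at 21.2 and 20.5 FPKM with PBS and 4.27 and 3.42 FPKM at 5 µM and at 9.28 and 9.60 FPKM with PBS and 1.67 and 1.23 FPKM at 5 µM, beside the lower fibroblast marker sums given above. Their share in these falls was not tested. Gzme (29.1 and 29.8 FPKM with PBS and 3.07 and 5.91 FPKM at 5 µM), Gzmc and Gzmd are serine protease genes of a cluster of close relatives, and the last 2 were at 4.82 and 5.92 FPKM with PBS and 0.425 and 0.565 FPKM at 5 µM and at 8.87 and 13.1 FPKM with PBS and 0.945 and 2.17 FPKM at 5 µM, while Gzma was listed at 0 in all 4 samples. Arg1, the arginase of alternatively activated macrophages, was at 14.2 and 16.2 FPKM with PBS and 3.60 and 2.02 FPKM at 5 µM. On GRCm38, Txnip lies on chromosome 3, 96557957 to 96561883, Thbs1 on chromosome 2, 118111876 to 118127133 and Itga11 on chromosome 9, 62677826 to 62783982.

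**Figure D5:**
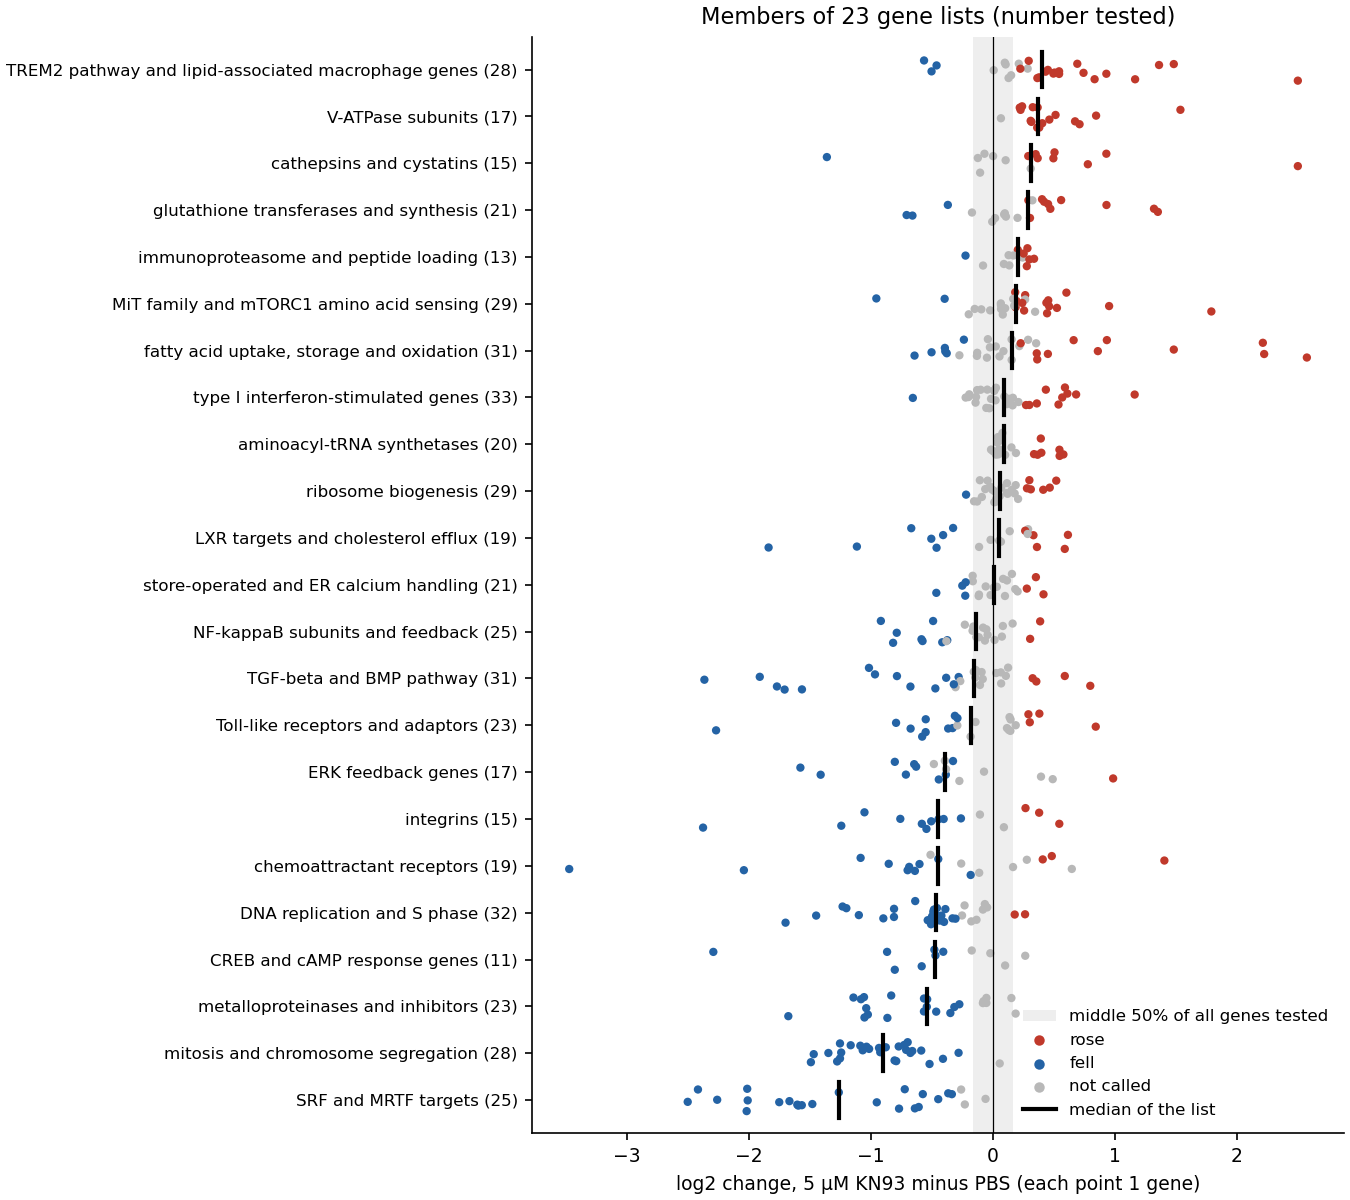
Log2 change from PBS to 5 µM KN93 of each tested member of 23 gene lists (1 point a gene, red rose, blue fell, grey not called), with the list median as a black bar and the middle 50% of all genes tested shaded. The SRF and MRTF targets and the mitosis genes had the lowest medians (-1.26 and -0.90), and the TREM2 and V-ATPase lists the highest (0.41 and 0.37).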

How the data were processed

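RNA of mouse bone marrow-derived macrophages was sequenced on an Illumina instrument, per the labels, and reads were aligned with HISAT2 to GRCm38, per the submitters' processing notes. The deposited values are FPKM per gene, made by the authors; a counting tool and a strand setting are not named in the labels, so antisense and near-identical genes are uncertain. Members needed 1 FPKM in 2 of the 4 samples. limma 3.58.1 in R 4.3.3 was run on log2(FPKM + 1) with an intensity trend, all 6 samples in the fit and Benjamini-Hochberg adjustment over 12363 genes, and was tested on simulated data. The rule for named genes was the 25 largest rises and falls and up to 8 members of each list with the smallest p. The rises and falls were picked among called genes without overlap between the groups, leaving out predicted-gene symbols. The text gives values for 49 of the 50 and for 169 of the 411, and the other list members stand in counts only. Genes given as not called, and Ctsa, Ctsd and others outside that rule, were chosen after their values were seen. Members and lists were chosen with earlier results of these data known. Counts without markers of other cell types were added after seeing the data. RefSeq promoter windows (GRCm38.p6) matched 80.6% of the protein-coding genes tested. Depth is given as implied by the FPKM. A few genes are not reported here.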

Additional observations from a re-analysis of the deposited data

How the results depend on the processing

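Leaving out 1 of the 6 samples gave 1990 to 3932 calls, 904 to 1924 rises and 1086 to 2008 falls. The low ends came without a PBS or 5 µM sample, where the lone sample left was assumed to vary like the other groups, and 49.2% to 54.3% of the 3917 calls were shared. A log2 change of at least 1 in size was held by 420 calls, 113 rises and 307 falls. Calls under the other settings ranged from 2954 with a filter of 5 FPKM, which tested fewer genes, to 4346 with voom on recovered fragments. Every gene called kept its direction in each refit that tested it, which was fixed in advance for most of them. The groups of a called gene did not overlap, so leaving out a sample could not turn its sign. Another filter, pseudocount, trend or block could not do so either. With no filter 1321 rose and 1637 fell, with median-of-ratios scaling 1781 and 2110, and with quantile normalization 2201 and 1933. Samples with the same replicate number did not deviate together (correlations of -0.0527, 0.00657 and 0.0437), and the main fit did not pair them. With 2 samples a group these correlations cannot exclude a pairing, which the labels neither give nor deny. A fit with the replicate number as a block called 3495 genes, 1682 that rose and 1813 that fell. With 2 samples a group, small changes and genes near 1 FPKM are resolved least.

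Of the named genes that were not called, Actb, Itgb2, Spp1, Stim1 and Tfe3 passed under 1 or more alternatives other than leaving out a sample: Actb (-0.45) and Tfe3 (-0.15) as lower and Itgb2 (0.19) and Spp1 (0.36) as higher with quantile normalization, and Stim1 (-0.18) as lower with median-of-ratios scaling. Other named genes that were not called changed sign under some settings; the cause was not tested. The log2 change with median-of-ratios scaling put Dars at -0.014, Irf8 at -0.014, Isg15 at -0.0029, Ldha at -0.017, Map1lc3b at -0.0029, Mx1 at -0.0041 and Rela at -0.00094. Quantile normalization put Irf8 at -0.0054, Lgmn at 0.085, Mcl1 at 0.019, Nars at 0.015 and Tyrobp at -0.043. Over the fits without 1 sample the log2 change ran from lowest to highest as follows: Abcg1 -0.053 to 0.16, Actg1 -0.56 to 0.11, Adam8 -0.16 to 0.0063, Becn1 -0.049 to 0.016, Cd36 -0.071 to 0.12, Cd40 -0.067 to 0.25, Dars -0.027 to 0.0303, Egr1 -0.16 to 0.017, Fcgr1 -0.20 to 0.0095, Irf8 -0.041 to 0.048, Isg15 -0.14 to 0.17, Ldha -0.069 to 0.069, Map1lc3b -0.025 to 0.051, Mef2d -0.058 to 0.033, Mitf -0.077 to 0.036, Mmp12 -0.13 to 0.028, Mx1 -0.13 to 0.16, Rela -0.031 to 0.063, Spi1 -0.10 to 0.017 and Tnf -0.22 to 0.11.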
